A study of Mchenga conophoros with 13 samples.

Results

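Pallial and subpallial spots of the telencephalon of Mchenga conophoros, a Lake Malawi cichlid whose males build sand castles, were compared gene by gene. Each spot is a barcoded point of a Visium capture area that collects the RNA of the tissue above it and can hold several cells, whose RNA is counted as unique molecular identifiers (UMIs). Spots were chosen by the UMIs of 8 genes, so the levels of these genes are a description of the choice. Pallial spots had at least 5 UMIs of slc17a6, bhlhe22, eomesa (LOC101480282) and neurod6b (LOC101472195) together, and more than 2 times as many as of the other side. Subpallial spots had at least 5 UMIs of gad2, dlx5, six3 and sp9 together, again more than 2 times the other side. Of 6755 spots, 6624 had at least 500 UMIs, and 2481 of these were pallial, 1529 subpallial and 2614 neither. Of the last, 1807 had fewer than 5 UMIs on both sides and 807 had 5 or more on at least one side without passing the ratio.

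The sections came from adult males of one species, 2 that were building before they were killed (building 1 and building 2) and 2 that were not (control 1 and control 2). The animals were size-matched build-control pairs with no genetic or drug treatment named in the labels, and their telencephala were cut coronally. Building 1 is represented by 1 capture area, labelled C, and each other male by 4, labelled A to D, so that for building 1 the plane of section and the male cannot be told apart. The male is the replicate throughout, and levels are given in the order building 1, building 2, control 1 and control 2.

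The pallium is the dorsal telencephalon, and in vertebrates its projection neurons are mainly glutamatergic. The subpallium lies below it and holds the striatal, pallidal and septal territories, where most neurons make GABA. Spots are called subpallial here by the rule genes alone, and whether some of them lie in the olfactory bulb or the preoptic area was not tested. The homeodomain factors of the Dlx family and Six3 act in the subpallium during development, and basic helix-loop-helix factors such as Bhlhe22 and Neurod6 mark pallial excitatory neurons in mammals. In teleost fish the pallium is everted rather than folded inward, so its position in a section differs from that of a mammalian cortex.

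In the 4 males there were 248, 1081, 433 and 719 pallial spots and 154, 846, 244 and 285 subpallial spots. The summed counts that entered the comparison ran from 1270073 UMIs (subpallial spots of control 1) to 12061697 (pallial spots of building 2). Median depth was 6623.5, 10140, 5674 and 11455 UMIs in pallial spots and 7627, 9502.5, 4650 and 10480 in subpallial spots. The log2 ratio of the medians, pallial over subpallial, was 0.08 ± 0.20 (SD, n = 4 males; exact sign-flip permutation test, two-sided, p = 0.5, where 4 males allow no value below 0.13). Spots in neither class were shallower, with medians of 3316, 4904, 1918 and 5741.5 UMIs. Capture areas had medians from 1225.5 (control 1 C) to 11973 UMIs per spot, and 1631 of 2717 barcodes occur in more than 1 area, as the array positions repeat.

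**Figure D1:**
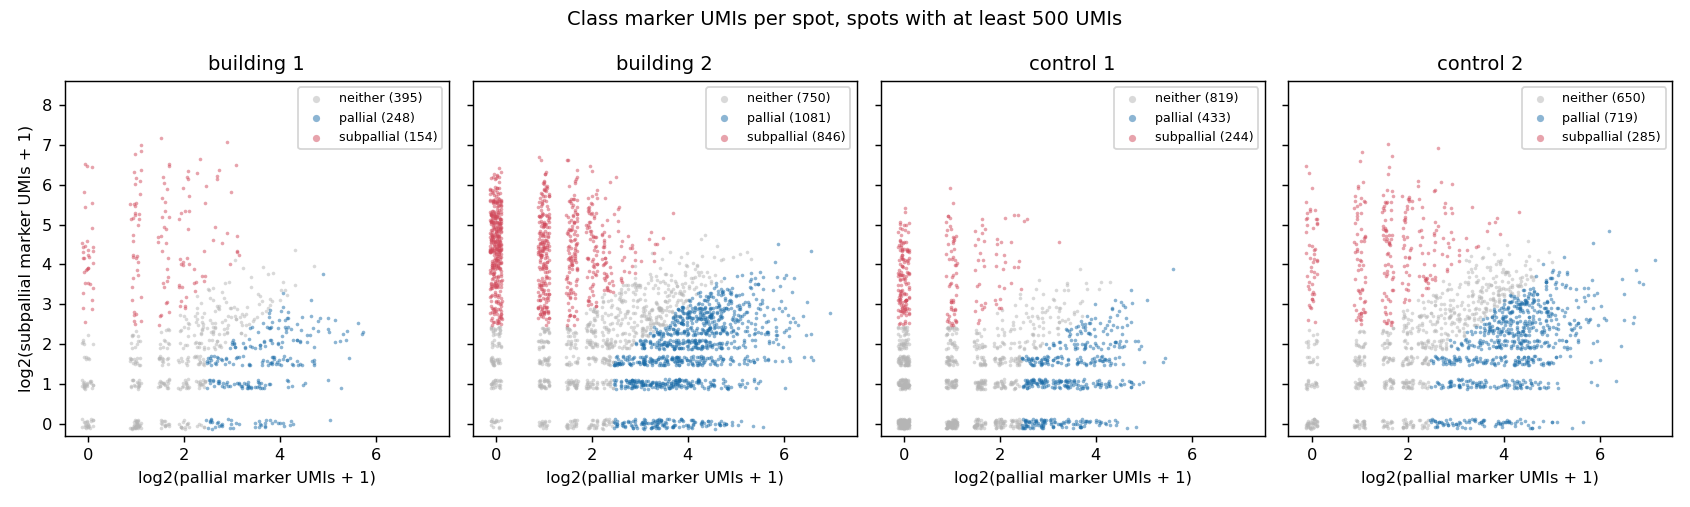
UMIs of the 4 pallial marker genes (x axis) and the 4 subpallial marker genes (y axis) in every spot with at least 500 UMIs, both as log2 of the UMIs plus 1, with 1 panel for each male and colors for the 3 classes. The 2481 pallial spots lie along the lower right, the 1529 subpallial spots along the upper left, and the 2614 spots of neither class fill the corner at the origin and the diagonal.

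Spots lay close to the limits of the rule in both classes. Among pallial spots 171 had exactly 5 pallial UMIs, and 113 spots with 4 fell just outside. A ratio between 2 and 3 was seen in 461 pallial spots, while 512 spots with enough pallial UMIs had a ratio of 1 to 2 and were left out. For the subpallial class these numbers were 66, 80, 131 and 247. The rule genes were not specific to a class at the level of a spot. gad2, which encodes a GABA-synthesizing enzyme, had a UMI in 76.2%, 79.3%, 65.8% and 83.6% of pallial spots, and slc17a6, a vesicular glutamate transporter, in 53.2%, 39.8%, 34.8% and 63.9% of subpallial spots.

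Since the classes were made from these 8 genes, each gene was also tested with classes made from the remaining 7. These classes hold other numbers of spots. Without slc17a6 there were 113, 463, 186 and 345 pallial and 190, 1006, 274 and 403 subpallial spots. Without gad2 there were 325, 1307, 497 and 941 pallial and 122, 654, 164 and 196 subpallial spots. Levels per male are given as CPM, the UMIs of a gene in each 1000000 UMIs of the sum, scaled between sums by the TMM method. slc17a6 then stood at 868, 908, 826 and 844 CPM in pallial spots and at 167, 163, 177 and 247 in subpallial spots. All pallial values lay above all subpallial values. six3, a homeodomain factor of the ventral forebrain, stood at 16.4, 10.9, 9.99 and 11.9 CPM in pallial and at 484, 433, 663 and 398 CPM in subpallial spots, again without overlap. On the log2 scale the differences (pallial over subpallial) were 2.21 for slc17a6, 2.80 for bhlhe22, 3.02 for eomesa and 2.45 for neurod6b, and -1.99 for gad2, -3.69 for dlx5, -5.30 for six3 and -3.57 for sp9. The largest adjusted p of the 8 was 0.000284, for neurod6b (edgeR's quasi-likelihood test with Benjamini-Hochberg adjustment over all genes tested).

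Outside the rule, 12509 genes had enough counts to be tested, with the male as a block. Of these, 2894 (23.1%) were called at an adjusted p under 0.05, 1457 (11.6%) higher in pallial and 1437 (11.5%) higher in subpallial spots. Among the called genes 2758 had the same direction in all 4 males. The difference was over 2-fold for 529 pallial and 617 subpallial genes and over 4-fold for 152 and 224. For 2523 genes (20.2%) the 4 sums of one class all lay above the 4 of the other. The median log2 fold change of all tested genes was 0.00. In such sums, fewer cells of a type and less RNA per cell cannot be told apart. Where the block was left out, 2019 genes were called, 2012 of them among the 2894. With only capture area C of each male 971 of 10973 genes were called, and with every spot thinned to 1000 UMIs 1085 of 6397. The C areas share a label, and whether they share a plane of section is not given. None of the 2894 genes was called in the other direction in these settings.

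**Figure D2:**
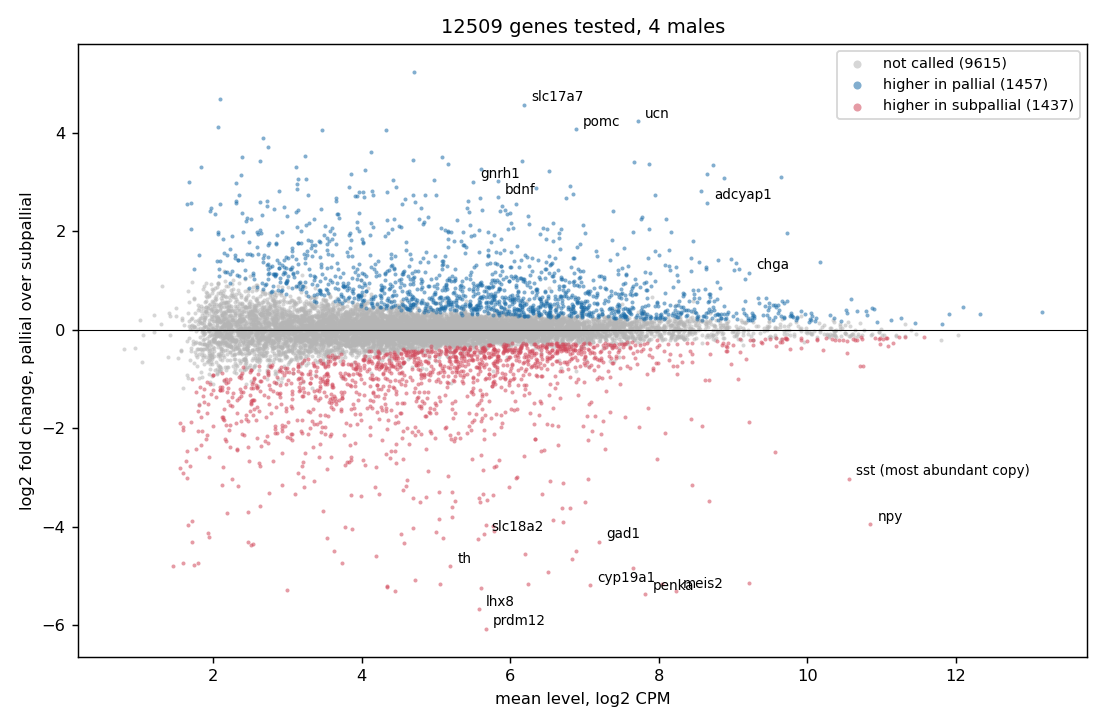
Mean level (x axis, log2 CPM) and log2 fold change, pallial over subpallial (y axis), of the 12509 genes tested in 4 males, with genes called at an adjusted p under 0.05 in color. The 1457 pallial and 1437 subpallial calls spread over the whole range of levels, and the labelled subpallial genes reach larger fold changes (prdm12, -6.07) than the labelled pallial genes (slc17a7, 4.57).

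Among named genes, those of largest fold on the pallial side were a glutamate transporter and peptide genes, while an unnamed gene described below was ahead of them. slc17a7 (LOC101484681), a vesicular glutamate transporter, stood at 171, 82.7, 189.9 and 105 CPM in pallial spots and at 6.93, 1.73, 8.58 and 8.37 CPM in subpallial spots. Every pallial value was above every subpallial one (23.7-fold, log2 fold change 4.57 ± 0.23 SE). ucn, which encodes urocortin, a peptide of the corticotropin-releasing hormone family, stood at 598, 264, 371 and 343 CPM against 24.9, 9.35, 32.0 and 23.8 CPM, with no overlap (18.8-fold). pomc (LOC101475601), the precursor of melanocortins and beta-endorphin, stood at 322, 173, 145 and 225 CPM against 11.1, 8.19, 10.1 and 21.6 CPM (16.7-fold). In both genes building 1 had the highest pallial level.

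Other genes among the 12 of largest pallial fold included fst, which encodes the activin-binding protein follistatin (37.1, 31.1, 23.3 and 23.2 CPM against 2.08, 2.65, 0.780 and 2.58 CPM). aqp9, a channel for water and glycerol, and lipc, the hepatic lipase, were also among them, at 13.1-fold and 16.7-fold, from pallial levels of 5.30 to 23.9 CPM. antxr2, a receptor for extracellular matrix proteins, was 10.9-fold higher. LOC112431289, which has no name in the sources used here, headed the group with a log2 fold change of 5.24 ± 0.39 (SE). Its pallial levels were 17.4, 56.2, 64.6 and 32.5 CPM, and in subpallial spots it had 0 UMIs in building 1, which allows up to 2.08 CPM, and 0.692 to 3.22 CPM in the other males. In all 12 genes the pallial sums lay above all subpallial sums, and 5 of the 12 are without a name. Of all 12509 tested genes, 1306 had all pallial sums above all subpallial sums, and 20.2% had separated sums in either direction. Their adjusted p values were at most 0.00144 (edgeR's quasi-likelihood test, Benjamini-Hochberg). The 12 were chosen by fold among called genes with 1 direction in all 4 males. Separated sums and low adjusted p values thus follow largely from the choice.

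Among named genes on the subpallial side, most of the largest folds belonged to transcription factors, an opioid peptide and enzymes or transporters of small signals. meis2, a homeodomain factor of the mammalian striatal lineage, stood at 16.8, 14.9, 14.4 and 12.7 CPM in pallial and at 715, 515, 686 and 503 CPM in subpallial spots (39.6-fold). The spread between males was small beside this gap. penka (LOC101474395), an enkephalin precursor, stood at 13.9, 5.80, 12.9 and 13.9 CPM against 546, 276, 459 and 560.2 CPM (41.0-fold). The aromatase gene cyp19a1 (LOC106675461), whose product makes estrogens from androgens, stood at 8.69, 11.9, 2.51 and 6.36 CPM against 155, 502, 166 and 206 CPM (36.5-fold). The subpallial level of building 2 was the highest, and no pallial level came near any subpallial one.

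prdm12 and lhx8 had the largest folds among genes with at least 200 UMIs, but not in every male alike. prdm12, a zinc finger factor required for pain-sensing neurons in mammals, stood at 1.16, 2.48, 1.80 and 1.18 CPM in pallial and at 5.54, 148, 111 and 131 CPM in subpallial spots. lhx8, a LIM factor of forebrain cholinergic neurons in mouse, stood at 0, 3.73, 2.15 and 1.06 CPM against 1.39, 148, 127 and 95.9 CPM. The pallial 0 in building 1 allows up to 1.74 CPM, and the subpallial level there lay below the pallial level of 2 other males, so that the groups overlapped. In building 1 the subpallial levels of both genes were far below those of the other 3 males. The fitted log2 fold changes were -6.07 ± 0.24 and -5.67 ± 0.19 (SE). In 11 of the 12 genes of largest subpallial fold the sums of the classes did not overlap, lhx8 being the exception, and 4 of the 12 have no name. Of all 12509 tested genes, 1217 had all subpallial sums above all pallial sums. Their adjusted p values were at most 1.18e-06 by edgeR's quasi-likelihood test with Benjamini-Hochberg adjustment. As on the pallial side, both properties follow largely from the choice of these genes among the called ones.

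Transmitter genes outside the rule also differed between the classes, while slc17a6 and gad2 themselves were part of it. A further slc17a7 copy (LOC101482485) stood at 473, 439.6, 472 and 395 CPM in pallial against 72.1, 87.2, 94.4 and 117 CPM in subpallial spots. gad1, which encodes the other GABA-synthesizing enzyme, stood at 11.0, 16.2, 14 and 15.1 CPM against 297, 341, 272 and 243 CPM (19.7-fold, adjusted p = 2.43e-08, edgeR's quasi-likelihood test with Benjamini-Hochberg adjustment). Both were separated by class in every male and in all 13 capture areas. gad1 had a UMI in 44.2%, 73.5%, 49.6% and 64.2% of subpallial spots and in 6.85%, 14.7%, 7.39% and 15.4% of pallial spots, at the depths given above. Another gad1 copy (LOC101473770) was 3.59-fold higher in subpallial spots with overlapping groups, and its call was lost without the block (adjusted p = 0.0944).

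Among 14 genes of glutamate release and its scaffold, 7 were higher in pallial (4 without the block, 2 with area C alone) and 2 in subpallial spots, with a median log2 fold change of 0.40. homer3 and shank1, postsynaptic scaffold proteins, were 2.73-fold and 1.49-fold higher in pallial spots. neto1, an auxiliary subunit of kainate receptors, went the other way, at 19.1, 17.3, 14.4 and 21.7 CPM against 103, 98.3, 91.3 and 59.2 CPM. Of 11 glutamate receptor genes 2 were higher in pallial and 3 in subpallial spots. grm2, a presynaptic metabotropic receptor, was 3.06-fold higher in pallial spots, while grm8, also metabotropic, and grik3, a kainate receptor subunit, were 4.15-fold and 2.79-fold higher in subpallial spots. Of 8 GABA and glycine receptor genes 2 were called higher in pallial spots, and 1 without building 1, control 1 or control 2. In subpallial spots 3 were higher, with glrb, the glycine receptor beta subunit, 1.93-fold higher in subpallial spots.

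The genes slc18a2, slc6a3 and th of monoamine neurons were subpallial. Of 7 tested genes for cholinergic and monoamine neurons 5 were higher in subpallial spots (3 of 6 without building 2) and none in pallial spots. This is 71.4%, against 23.1% of all genes. The median log2 fold change was -3.97, while with no filter on low counts it was -2.32, with 5 of 8 genes called. The genes chat, slc18a3, slc5a7, slc6a4 and maoa were not found under these symbols, so the list does not cover them. slc18a2, the vesicular monoamine transporter, stood at 3.47, 5.88, 6.82 and 6.24 CPM against 76.9, 104, 119 and 109 CPM. slc6a3, the dopamine transporter, stood at 8.69, 2.48, 4.31 and 4.94 CPM against 143, 79.7, 178 and 244 CPM, and th, the rate-limiting enzyme of dopamine synthesis, at 2.90, 1.49, 2.51 and 2.35 CPM against 229, 33.6, 65.6 and 48.9 CPM. None of the 3 had overlapping groups. th is also a marker of olfactory bulb cells, and its subpallial level in building 1 was over 3 times that of any other male. The paper describes a GABA cluster with th, tac1 and drd1 by genes of the subpallium and of the granule cell layer of the bulb.

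Of 34 ligand genes of the study's list, 29 were tested and 28 called (96.6%, against 23.1% of all genes). The list also holds transmitter enzymes and transporters. Of the called genes 11 were higher in pallial and 17 in subpallial spots, and the median log2 fold change of the list was -1.85. A low gene can pass the filter through the class where it is high. With no filter on low counts 11 and 17 of 33 were called (median -1.31), against 3726 of 21780 of all genes. bdnf, a neurotrophin, was nearly level between males, at 92.1, 93.1, 89.0 and 94.3 CPM in pallial and 10.4, 14.7, 14.8 and 16.1 CPM in subpallial spots (6.44-fold). Both copies of adcyap1, which encodes the peptide PACAP, were pallial. LOC101478358 stood at 562, 978, 651 and 512 CPM against 65.1, 152, 123 and 112 CPM, and adcyap1 at 359, 283, 299.8 and 322 CPM against 39.5, 125, 68.7 and 80.2 CPM. The opioid precursors were split between the classes. pdyn, the dynorphin precursor, was 8.10-fold higher in pallial spots, at 34.2, 152, 81.5 and 80.8 CPM against 3.46, 10.4, 19.5 and 16.1 CPM. penka and pnoc (LOC101473568), the nociceptin precursor, were higher in subpallial spots, the latter at 22, 9.93, 11.8 and 13.7 CPM against 403, 223, 529 and 481 CPM.

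npy and the somatostatin genes were higher in subpallial spots. npy, which encodes neuropeptide Y, stood at 121, 609.6, 138 and 147 CPM in pallial and at 1649, 6176, 2649 and 3221 CPM in subpallial spots, with building 2 highest in both classes. tac1, the substance P precursor, was 14.4-fold higher in subpallial spots. The somatostatin copies differed from each other. LOC101486892 stood at 5.79, 11.3, 9.69 and 7.06 CPM against 446, 142, 217 and 196 CPM, all subpallial values above all pallial ones. LOC101485677 stood at 46.3, 807, 132 and 161 CPM against 29.8, 6284, 1180.0 and 3372 CPM, so that building 1 was slightly higher in pallial spots while the other 3 males were higher in subpallial spots. Its call (adjusted p = 0.00177 by edgeR's quasi-likelihood test with Benjamini-Hochberg adjustment) was lost without the block (adjusted p = 0.0992).

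Of 18 further peptide and secretory genes in the files 10 passed the filter on low counts, and 6 were higher in pallial and 3 in subpallial spots (median log2 fold change 1.05). With no filter the counts were 8 and 8 of 18 and the median was -0.14. Without building 1, 7 and 5 of 14 were called. gnrh1, which encodes gonadotropin-releasing hormone, stood at 49.8, 90.2, 62.1 and 79.8 CPM in pallial and at 1.39, 10.2, 4.68 and 16.7 CPM in subpallial spots. It had a UMI in 12.5%, 23.9%, 12.5% and 22.9% of pallial and in 1.3%, 8.16%, 2.46% and 13.3% of subpallial spots. chga, a granin of secretory vesicles, was close between males, at 783, 854, 830.1 and 798 CPM against 331, 437, 347 and 348 CPM. crh, the corticotropin-releasing hormone gene, went the other way, at 8.69, 66.1, 24.1 and 15.1 CPM against 12.5, 424, 105 and 341 CPM, with overlapping groups and the lowest subpallial level in building 1. ucn and crh, members of one peptide family, were thus called in opposite directions.

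**Figure D3:**
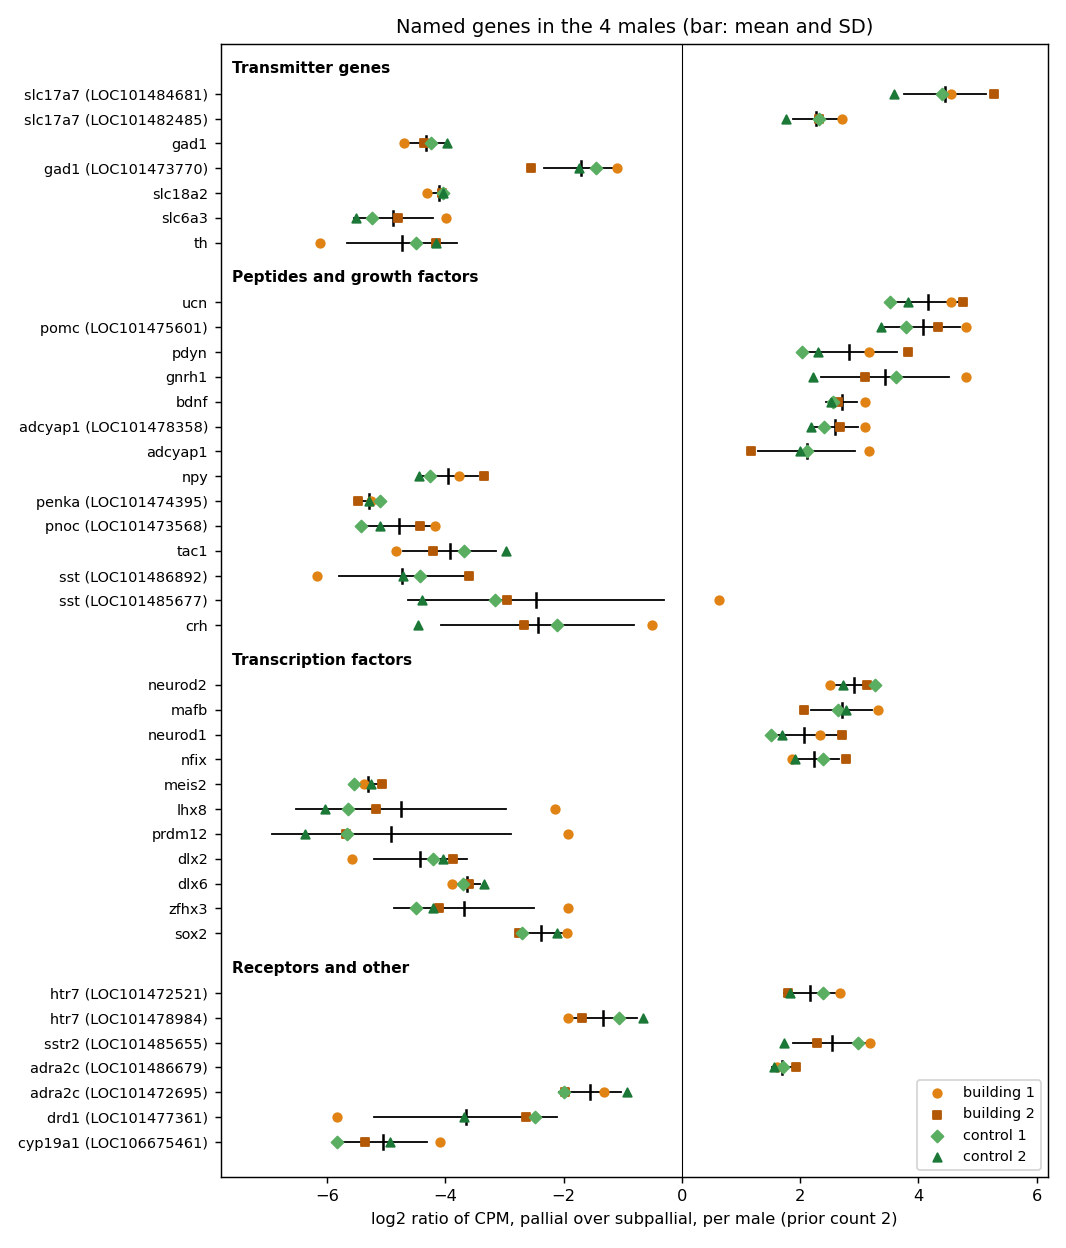
Log2 ratio of pallial over subpallial CPM (x axis, with a prior count of 2) of named genes in each of the 4 males, with the mean and SD as a black bar. Points of the 4 males lie together for meis2, bdnf or slc18a2 and spread widely for lhx8, prdm12, crh and the somatostatin copy LOC101485677, where building 1 lies to the right of the other males.

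Of 25 subpallial transcription factors in the files 16 passed the filter on low counts, and 15 of these were higher in subpallial and 1 in pallial spots (median log2 fold change -3.70). With no filter the counts were 18 and 1 of 25 (median -3.32). The genes isl1, ebf1, six6 and sox6 were not found under these symbols. dlx2 and dlx6, of the same family as the rule gene dlx5, were 18.9-fold and 12.2-fold higher in subpallial spots. zfhx3, a large zinc finger and homeodomain factor, stood at 1.16, 3.73, 2.51 and 1.77 CPM against 5.54, 70.5, 65.6 and 39.9 CPM, and lhx6, a LIM factor of GABA neurons from the mammalian medial eminence, at 0.579, 4.06, 3.59 and 1.88 CPM against 2.08, 65.4, 58.5 and 46.4 CPM. Like lhx8 and prdm12 they were low in subpallial spots of building 1. vax1 and arx, homeodomain factors of the ventral forebrain, were 26.5-fold and 10.1-fold higher without overlap.  The exception in the list was mafb, a bZIP factor found in interneurons of the medial eminence in mouse, which stood at 142, 45.9, 60.3 and 60.0 CPM in pallial and at 13.9, 10.6, 9.36 and 8.37 CPM in subpallial spots (6.16-fold, adjusted p = 3.94e-06, edgeR's quasi-likelihood test with Benjamini-Hochberg adjustment).

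Of 11 pallial factors in the files 8 were tested, and 3 were higher in pallial and 2 in subpallial spots (3 without building 2, 1 without control 2), with a median of -0.06. The genes emx1, emx3, neurod6, ebf3, eomes and neurog1 were not found under these symbols. The pallial rule genes, among them eomesa and neurod6b, were left out as well. The median may thus not speak for pallial factors in general. neurod2, a basic helix-loop-helix factor of excitatory neurons, stood at 186, 171, 177 and 215 CPM in pallial and at 32.6, 19.2, 17.9 and 32.2 CPM in subpallial spots (7.58-fold). neurod1, of the same family, was 5.11-fold higher. fezf2, which specifies subcortical projection neurons in mouse, was 2.08-fold higher with overlapping groups, since control 1 had 24.8 CPM in pallial and 26.5 CPM in subpallial spots. The 2 members that went the other way were cux2, a factor of upper layer neurons in mouse (3.34-fold), and emx2, a dorsal patterning factor (2.41-fold, from subpallial levels of 4.85 to 7.73 CPM). The call of emx2 was lost without control 2 (adjusted p = 0.0924).

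Among the study's 30 tested brain region factors, 5 were higher in pallial and 13 in subpallial spots (8 without control 2), a list that shares members with the lists above. id2, an inhibitor of basic helix-loop-helix factors, was 2.16-fold higher in pallial spots, at 371, 464, 408 and 394 CPM against 187, 171, 182 and 222 CPM. bcl11b, a zinc finger factor of striatal and deep-layer neurons in mouse, stood at 54.4, 61.3, 35.2 and 38.6 CPM against 254, 212, 244 and 197 CPM. sox2, a factor of neural progenitors, was 5.33-fold higher in subpallial spots, at 55.6, 43.8, 49.9 and 53.0 CPM against 216, 297, 329 and 231 CPM. Neither had overlapping groups, but another sox2 copy (LOC101483038) was not called (log2 fold change -0.36). nfix, a nuclear factor listed by the study among neuronal differentiation genes, was 4.77-fold higher in pallial spots, whereas 5 of the 9 genes of that list were higher in subpallial spots. The latter included stmn1 (LOC101477131), a tubulin-binding protein (1.66-fold), and a tubb gene (LOC101469831), a tubulin (1.68-fold).

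Receptors of neuromodulators were mixed. Of 108 genes of the study's list in the files 58 had enough counts to be tested, and 14 were higher in pallial and 19 in subpallial spots (median log2 fold change -0.15). The calls were 56.9% of those tested, against 23.1% of all genes. Without building 2 the counts were 15 and 7, and with DESeq2 14 and 14. With no filter on low counts they were 18 and 26 of 102, against 3726 of 21780 of all genes. chrm5, a muscarinic acetylcholine receptor, stood at 49.2, 27.3, 23.0 and 20.1 CPM in pallial and at 9.01, 2.42, 4.68 and 4.83 CPM in subpallial spots. An sstr2 copy (LOC101485655), a somatostatin receptor, stood at 104, 88.3, 108 and 96.9 CPM against 11.1, 17.8, 13.3 and 29.0 CPM. The receptor was thus 5.13-fold higher in pallial spots, where both somatostatin genes had the lower fitted level.

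Dopamine receptors differed by type. drd1 (LOC101477361) stood at 0.579, 3.81, 3.59 and 1.65 CPM in pallial and at 55.4, 25.9, 21.9 and 26.1 CPM in subpallial spots (10.3-fold), and drd2 was 2.57-fold higher in subpallial spots as well. drd4 (LOC101473075), in contrast, stood at 103, 135, 93.7 and 105 CPM against 53.4, 54.0, 59.3 and 50.9 CPM. None of the 3 had overlapping groups in the sums per male, but single capture areas went the other way. Without TMM scaling drd4 stood at 82.4 CPM in pallial against 112 in subpallial spots in control 1 D and at 73.1 against 97.2 in control 2 A. In control 2 A drd2 stood at 28.1 against 23.0 CPM and drd1 at 2.81 against 0 CPM, which allows up to 7.67. Another drd2 copy (LOC101472921), with 119 UMIs over all sums, was also called subpallial, with a log2 fold change of -4.74. Among the adrenergic receptors adra1b (LOC101485219) was 2.49-fold higher in pallial spots and adra2b (LOC101484392) 3.31-fold higher in subpallial spots. ramp1 (LOC101467429), an accessory protein of the calcitonin receptor-like receptor, was 6.10-fold higher in subpallial spots.

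Several genes carry one human name in the study's tables. Of 33 names with 2 or more tested copies (69 copies), 10 had all copies called in the same direction, 5 had copies called in opposite directions, 11 had called and uncalled copies and 7 had none called. How reads of near-identical copies were assigned is not given in the sources used here, so values of single copies carry that uncertainty. The 5 names with opposite calls were htr7, adra2c, egr3, pvalb and nr3c2. For htr7, a serotonin receptor, LOC101472521 stood at 162, 123, 112 and 148 CPM in pallial and 24.9, 35.3, 21.1 and 41.5 CPM in subpallial spots. LOC101478984 stood at 8.11, 9.36, 14.4 and 15.4 CPM against 31.9, 31.2, 30.4 and 24.5 CPM. Neither copy had overlapping groups, and their log2 fold changes were 2.06 and -1.31.

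For adra2c, an alpha-2 adrenergic receptor, LOC101486679 and LOC101474048 were 3.43-fold and 3.20-fold higher in pallial spots, and LOC101472695 was 3.06-fold higher in subpallial spots, at 8.69, 5.88, 3.23 and 7.06 CPM against 22.2, 24.2, 14.05 and 13.8 CPM. A further copy, LOC101479598, was 1.85-fold higher in pallial spots, a call lost without control 2 (adjusted p = 0.0702). For egr3, an immediate early transcription factor, the gene of that symbol stood at 129.7, 97.4, 78.6 and 96.6 CPM against 35.3, 29.7, 45.3 and 43.8 CPM and LOC101482048 at 48.6, 44.4, 52.8 and 48.3 CPM against 112, 76.3, 86.6 and 68.2 CPM. The copies of pvalb, a calcium-binding protein, had log2 fold changes of 0.96 (LOC101487165) and -1.24 (LOC101478422). LOC101487165 was nevertheless lower in pallial than in subpallial spots in building 2 C and D, control 1 D and control 2 A. The call of LOC101478422 was lost without building 2 (-0.88, adjusted p = 0.129 by edgeR), without control 2 (-1.07, adjusted p = 0.103) and in several other settings. Of the nr3c2 copies, which encode mineralocorticoid receptors, nr3c2 was 4.10-fold higher in pallial spots. LOC101465385 was lower there (log2 fold change -0.70) and lost its call without building 2 (adjusted p = 0.315), control 1 (adjusted p = 0.127) or control 2 (adjusted p = 0.122).

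**Figure D4:**
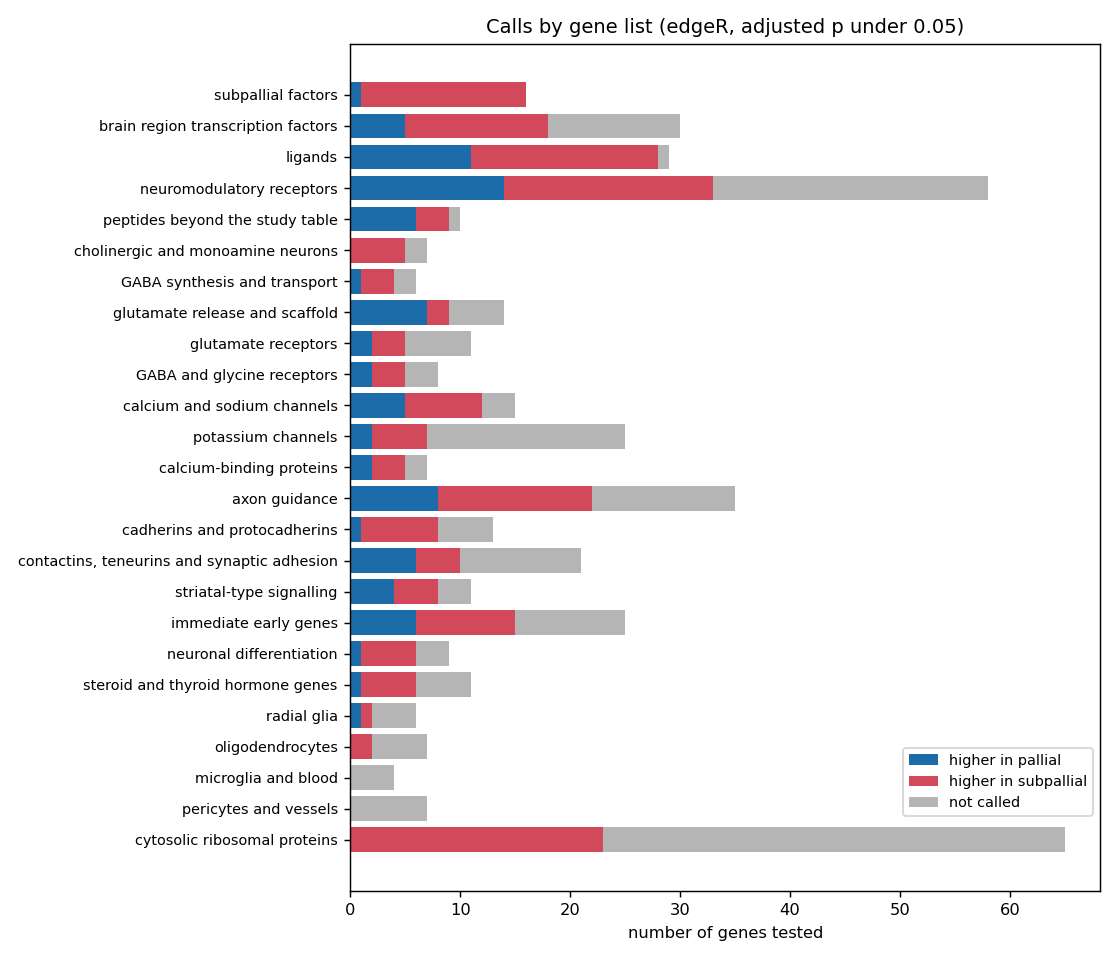
Number of tested genes (x axis) in each gene list, split into those higher in pallial spots, those higher in subpallial spots and those not called at an adjusted p under 0.05 by edgeR. The subpallial factors and ligands that were tested are called nearly throughout, microglia and vessel lists have no called member, and ribosomal proteins are called in the subpallial direction only.

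Ion channel genes were called in both directions. Of 25 potassium channel genes 2 were higher in pallial (4 of 32 without building 1) and 5 in subpallial spots, 28% against the 23.1% of all genes. kcng4, a modifier subunit of voltage-gated potassium channels, stood at 57.9, 27.1, 35.5 and 40.02 CPM in pallial and at 1.39, 4.50, 6.24 and 9.66 CPM in subpallial spots. kcnh4, a voltage-gated channel of the EAG group, was 4.74-fold higher in subpallial spots. Of 15 calcium and sodium channel genes 5 and 7 were called, together 80%. cacna2d2, an auxiliary calcium channel subunit, stood at 86.9, 106, 77.2 and 80.3 CPM against 274, 372, 399.6 and 338 CPM, and cacna1e, an R-type channel, was 4.65-fold higher in subpallial spots. Both lists had median log2 fold changes near 0 (-0.03 and 0.05).

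Cadherins held more subpallial than pallial calls, and axon guidance genes were called in both directions. Of 13 tested cadherins and protocadherins 1 was higher in pallial and 7 in subpallial spots (median log2 fold change -0.44). Together these were 61.5%, against 23.1% of all genes. pcdh8, an activity-regulated protocadherin, stood at 39.95, 26.4, 21.2 and 33.0 CPM in pallial and at 143, 129.8, 190.4 and 107 CPM in subpallial spots, and cdh22 was the member on the pallial side (2.05-fold). Of 35 tested axon guidance genes 8 and 14 were called, together 62.9%. With no filter on low counts it was 13 and 14 of 46, and after thinning 6 and 6 of 18. The guidance receptors robo1 and robo2 differed in direction. robo1 stood at 45.7, 46.1, 65.7 and 51.9 CPM against 27.0, 23.0, 32.0 and 25.1 CPM, and robo2 at 90.3, 67.6, 90.8 and 91.5 CPM against 202, 158, 183 and 163 CPM, neither with overlap. Their ligand gene slit1 was 4.32-fold higher in subpallial spots. sema3e, a secreted semaphorin, was 4.12-fold higher in pallial spots, and plxna2, a semaphorin receptor subunit, 3.01-fold higher in subpallial spots. Of 21 contactins, teneurins and synaptic adhesion genes 6 (3 without control 2) and 4 were called, among them cntn5 (2.57-fold) and lrrtm1 (2.11-fold) higher in pallial and flrt3 (2.55-fold) higher in subpallial spots.

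Among 11 tested steroid and thyroid hormone genes 54.5% were called, against 23.1% of all genes. Of these, 1 was higher in pallial and 5 in subpallial spots, and the median log2 fold change of the list was -0.70. The subpallial count was 2 without building 2 or control 2 and 3 without the block. Besides cyp19a1, esr2, an estrogen receptor, stood at 1.74, 2.65, 1.80 and 2.83 CPM in pallial and at 4.16, 7.62, 7.02 and 8.05 CPM in subpallial spots. These levels rest on few UMIs, but the groups did not overlap (2.92-fold, adjusted p = 0.00142, edgeR's quasi-likelihood test with Benjamini-Hochberg adjustment). dio2, which activates thyroid hormone, was 1.76-fold higher in subpallial spots, at 8.11, 12.5, 11.5 and 11.9 CPM against 23.6, 20.3, 18.7 and 19.6 CPM.

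Of 25 immediate early genes and genes listed with them, 6 were higher in pallial and 9 in subpallial spots, with a median log2 fold change of 0.04. Together the calls were 60% of the list, against 23.1% of all genes. jun (LOC101482945) stood at 559, 438, 706 and 547 CPM in pallial and at 257, 204, 258 and 209 CPM in subpallial spots. The gene with the symbol jun was not called (log2 fold change 0.15), and jund, of the same family, was 1.74-fold higher in subpallial spots. gadd45b, a stress and activity response gene, was 2.35-fold higher in pallial spots, and a gene named rtn4rl2 (LOC101486758), a Nogo receptor homolog, 3.65-fold higher in subpallial spots. egr1 and npas4 had no called difference. The 9 tested genes of the study's castle-divergent module held 1 call in each direction. This is 22.2%, against 23.1% of all genes, and the subpallial count was 2 without building 1 and 0 without control 1.

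Markers that the study gave for its clusters of nuclei were a further view of the classes, and each list is short. Of 13 markers of glutamatergic clusters 10 were tested, and 7 were higher in pallial and none in subpallial spots (median log2 fold change 1.19). Of 13 markers of GABA clusters in the files only 6 passed the filter on low counts, which a low gene can pass through the class where it is high. These 6 were higher in subpallial spots (median -3.25), and with no filter it was 10 of 13 (median -2.57). Among them was unc13b, a priming factor of synaptic vesicles, at 35.6-fold. mag, which in mammals encodes a myelin glycoprotein, is among the glutamatergic markers and stood at 163, 221, 239 and 168 CPM in pallial and at 41.6, 58.2, 42.1 and 55.0 CPM in subpallial spots.

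Glia markers held calls in the radial glia and oligodendrocyte lists, and microglia and vessel markers held none in the main fit. The median absolute log2 fold change was 0.20 for radial glia and 0.55 for oligodendrocyte markers, against 0.20 for all genes. Of 6 radial glia markers only cyp19a1 and s100b were called. s100b, a calcium-binding protein of glia, was 1.18-fold higher in pallial spots, a call lost without building 1 (adjusted p = 0.142), control 1 (adjusted p = 0.104) or control 2 (adjusted p = 0.166), and after thinning its log2 fold change was -0.02. The summed level of this list ran from 1131 to 1382 CPM (here without TMM scaling) in pallial and from 1315 to 1667 in subpallial spots. These sums include cyp19a1, at 8.58, 11.9, 2.49 and 6.29 CPM in pallial and 157, 506, 168 and 206 in subpallial spots on that scale. The sums thus do not show a higher subpallial level of the list apart from this gene. The gene fabp7 of radial glia had a log2 fold change of 0.01 and gfap of 0.04. Among 14 genes of radial glia quiescence 4 (28.6%, against 23.1% of all genes) were higher in pallial and none in subpallial spots, and 1 was without the block. The call of slc1a2, a glutamate transporter of astroglia (1.54-fold), was among those lost (adjusted p = 0.0812).

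Of 7 oligodendrocyte markers 2 were called (28.6%, against 23.1% of all genes), 5 without building 1 and none without the block. The 2 were olig2 and mpz, both higher in subpallial spots and both lost without building 2 (adjusted p = 0.211 and 0.268) or control 2 (adjusted p = 0.0757 and 0.172). The call of mpz was also lost without control 1 (adjusted p = 0.132). The summed level of the list was 261 to 430 CPM in pallial and 180 to 981 in subpallial spots, so the ranges overlapped. In building 1 the sum was 290 CPM in pallial and 180 in subpallial spots, and mpz stood at 46.9 against 33.7 CPM. In the other males both were higher in subpallial spots. None of 4 microglia and 7 pericyte and vessel markers was called. With classes from 6 transcription factors, however, 2 of 6 tested pericyte and vessel markers were called higher in pallial spots. The part of these cells in the differences above was not tested. Of 65 ribosomal protein genes 23 (35.4%, against 23.1% of all genes) were higher in subpallial spots and none in pallial spots. The log2 fold change was below 0 in 62 of them. The called values lay between -0.22 and -0.14, and 14, 5 and 2 genes were called without building 2, control 1 and control 2. No ribosomal gene was called without the block or with area C alone, and 5 with DESeq2. rpl7, for example, stood at 1016, 1401, 1185 and 1451 CPM against 1145, 1590.2, 1356 and 1806 CPM, a call lost without the block (adjusted p = 0.436) and without control 2 (adjusted p = 0.0524).

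Across the 37 lists, whose members overlap, 485 distinct genes were tested, 98 higher in pallial and 166 in subpallial spots. This is 54.4%, against 23.1% of all genes, and many of these genes were chosen because they differ between cell classes. Among other lists above, 100% of tested subpallial factors and GABA cluster markers and 90% of the further peptide and secretory genes were called. These shares hold only for genes that passed the filter on low counts, which a low gene can pass through its higher class. With no filter, 1 pallial and 18 subpallial calls were made among 25 subpallial factors. For GABA cluster markers it was 10 of 13, and for the peptide and secretory genes 8 and 8 of 18. With the filter, shares were 70% for glutamatergic cluster markers, 66.7% for neuronal differentiation, 64.3% for glutamate release and 45.5% for glutamate receptors. Pallial factors and GABA and glycine receptors had 62.5% each, brain region factors 60%, synaptic adhesion genes 47.6% and radial glia markers 33.3%.

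Within the subpallial class, levels differed strongly between capture areas, and some levels in pallial spots did so too. In pallial spots, without TMM scaling, pomc (LOC101475601) ran from 5.63 CPM in control 2 A to 437 CPM in control 2 B. There gnrh1 was at 1.23 CPM in control 1 D and at 144 CPM in control 2 B. The levels that follow are those of subpallial spots. In CPM without TMM scaling, lhx8 was at 0 in control 1 D, which allows up to 7.47 CPM, and 1.4 in building 1 C, and was at 94.7 to 319 in building 2 B to D, control 1 B and C and control 2 B and C. The somatostatin copy LOC101485677 was at 2132 to 12621 in the same 7 areas and in building 2 A, and at 14.9 to 81.5 in building 1 C, control 1 A and D and control 2 A and D. LOC101483654, which has no name in the sources used here, gave another set of areas. It was at 1330, 616, 1396 and 1716 CPM in building 1 C, building 2 A, control 1 A and control 2 D and between 0 and 143 in the other 9 areas. th and dlx3 followed the same 4 areas, th with 232, 82.3, 248 and 129 CPM there and at most 65.7 elsewhere.

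In control 1 D and control 2 A both sets were low, with lhx8 at 0 and 7.67 CPM and th at 0 in both, which allows up to 7.47 and 7.67 CPM. meis2 (320 to 844 CPM) and slc18a2 (54.9 to 179) were present in the subpallial spots of all 13 areas. For building 1 only an area low in lhx8 and high in LOC101483654 was measured, and control 1 and control 2 each have an area of that kind. These values are single sums of 42 to 317 spots with no replicate.

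**Figure D5:**
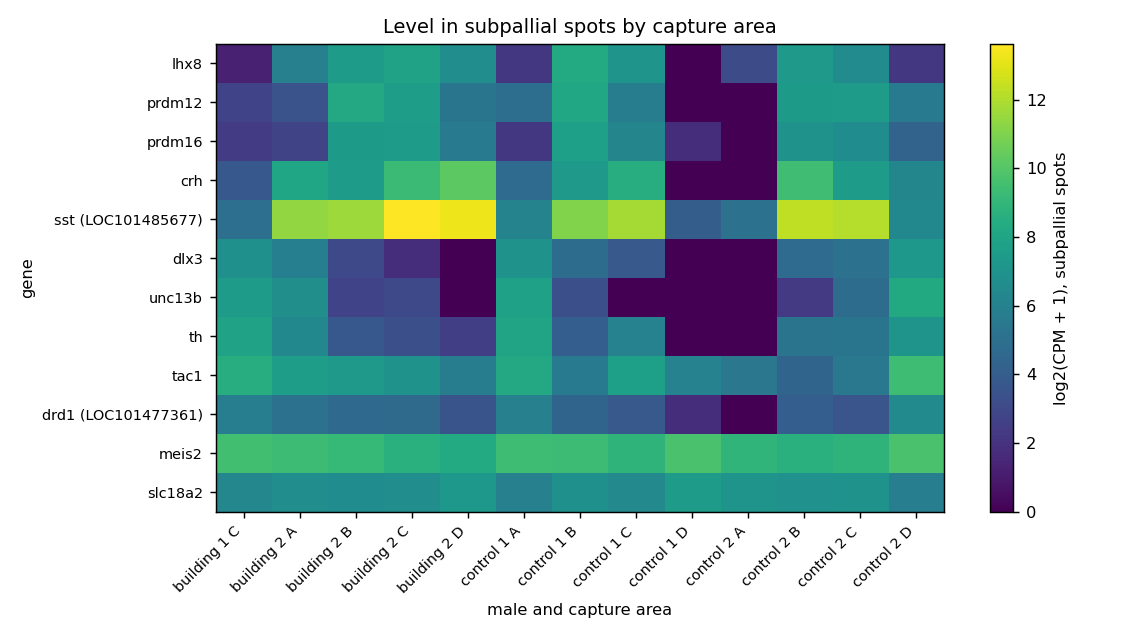
Level of 12 genes in the subpallial spots of each of the 13 capture areas, as log2 of CPM plus 1 (color scale). lhx8, prdm16 and the somatostatin copy are higher in building 2 B to D and in areas B and C of both control males than in building 1 C, control 1 A and D and control 2 A and D, while dlx3, unc13b, th and drd1 are highest in building 1 C, building 2 A, control 1 A and control 2 D.

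Spots in neither class lay between the classes for most called genes. Averaged over the 4 males, their level was between the pallial and the subpallial level for 80.5% of genes called pallial, 72.6% of genes called subpallial and 30.2% of genes not called. Here the levels of spots in neither class are without TMM scaling, while those of the classes carry it, with factors of 0.988 to 1.01. A called gene has a wider gap between its classes, so a level within the gap is more likely by construction. The shares of called and uncalled genes can therefore not be compared. In 485 of the 12509 tested genes such spots were above both classes in all 4 males. id2 was one of these, with 869, 584, 745 and 858 CPM in such spots against 371, 464, 408 and 394 CPM in pallial spots of the same males.

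Whether the difference between pallial and subpallial spots itself differed between building and control males was asked with an interaction term. No gene of 12509 was called by edgeR's quasi-likelihood test (smallest adjusted p = 1.00), 302 genes had an unadjusted p under 0.05, and with size factors of the median-ratio type the count was also 0. There are 2 males in each condition and a single area for building 1. Without building 1 the count was 171 and without building 2 it was 235, fits in which 1 building male is left. pdyn had one of the lowest unadjusted p values (0.000294), with log2 ratios of 3.16 and 3.82 in the building males and 2.04 and 2.30 in the control males.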

How the data were processed

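Visium libraries of 13 capture areas from 4 males were used. Values deposited by the authors are unnormalized UMI counts, one per gene in each spot, from Space Ranger 1.3.1 and reads aligned to a Maylandia zebra genome, kept as filtered matrices. The 13 matrices and 6755 spots held here, 4 of them with 0 UMIs, are more than the study's methods name. Spots with at least 500 UMIs were classed by 8 marker genes, with no doublet caller, since a spot can hold several cells. Counts of 32471 genes were summed per male and class (8 sums) and tested with edgeR 4.0.16 in R 4.3.3 (TMM, filterByExpr, quasi-likelihood test, male as a term, Benjamini-Hochberg adjustment, called at 0.05), with the rule genes left out of the test but not of library sizes. SE was taken from the log2 fold change and its F statistic. The floor of a count of 0 was 3 UMIs, which covers counting error only.

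The labels give each male as a separate animal, so both classes of 1 male are paired. Deviations from the class means correlated within a male at r = 0.312 to 0.505, against at most 0.189 between males. Each class mean is that of the same 4 males, so a positive value within a male lowers those between males by construction. Gene names of LOC identifiers come from the study's tables, which name 108 of the 5508 tested. No sequence is shown, as none was in the reference tables used here.

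Named genes are the 12 of largest fold in each direction among called genes with at least 200 UMIs and the same direction in all males, and in each list the called members of lowest p and members with another copy. npy, gnrh1, lhx6, zfhx3, vax1, arx, bcl11b, egr1, npas4, fabp7, gfap, chrm5, drd4, adra2b, cacna1e and shank1 were named after their values were seen. The members and gene lists were chosen with earlier results of these data known. Rule genes were left out of the lists, as were entries whose symbol was not found among the genes measured. Alternatives were no male term, median-ratio size factors, DESeq2 1.42.0, no filter, other class limits, a depth minimum of 1000 UMIs, thinning, area C only, leaving out control 1 C or each male, and classes from 6 transcription factors. The model was checked on simulated counts.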

Additional observations from a re-analysis of the deposited data

Results flagged for a closer look

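Among 186 named genes, the log2 ratio of pallial over subpallial CPM (prior count of 2) in 1 male lay far from the other 3 in 17 genes, by the gap to the nearest male over the whole range. Chance alone marks about 1 in 20 groups of 4. In 13 of the 17 genes the male was building 1, in 2 control 1 and in 2 control 2. Building 1 has 1 capture area, and its plane of section and the male cannot be told apart.

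In building 1 some of the transcription factors with higher subpallial levels elsewhere had ratios closer to 0. These were lhx6 (-1.34), zfhx3 (-1.93), prdm12 (-1.93), zfhx4 (-2.28) and prdm16, which was 0.90 in building 1 and thus on the pallial side. Other subpallial factors did not share this, as meis2 (-5.38) and dlx3 (-5.69) had ratios in building 1 within the range of the other males. LOC101470544, which has no name in the sources used here, stood at -3.77 there. nxph2, a neurexophilin, was on the pallial side in building 1 (0.63) and on the subpallial side in the fit over all males.

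Ratios in building 1 were larger in size than in the other males for antxr2 (4.95), kcng4 (5.03), necab1, a calcium-binding protein (-1.98), dio2 (-1.49) and slc18a2 (-4.32), and smaller for robo1 (0.75). In control 1 fezf2 was at -0.10 and pcdh18, a protocadherin, at -1.76. In control 2 LOC112431289 was at 3.18 and rpl7 at -0.32.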

How the results depend on the processing

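The count of 2894 called genes was within 1.5 times under median-ratio size factors (2877), DESeq2 (2243), no filter (3726), a class minimum of 10 UMIs (2757), a class ratio over 4 (2670), at least 1000 UMIs (2878), without control 1 C (2904) and classes from 6 transcription factors (2720). Without the male as replicate block it was 2019 (1019 pallial, 1000 subpallial). Leaving out each male gave 1971 to 3257 (993 to 1562 pallial, 978 to 1695 subpallial). Spots thinned to 1000 UMIs gave 1085 (545 pallial, 540 subpallial) of 6397 genes tested, and area C alone 971 (472 and 499) of 10973. Both settings use fewer UMIs and test fewer genes by construction. No called gene was called in the other direction in any of these settings.

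All 8 rule genes, each held out of the rule, kept their calls without the block. The log2 ratio of median depth stayed within its spread without each male (0.01 to 0.17), an alternative added after seeing the data. The interaction of class and condition gave 0 calls with median-ratio size factors and, in a fit added after seeing the data, without the block. It gave 43 of 21780 genes with no filter and 0 to 235 with a male left out (171 without building 1, 235 without building 2). The cause was not tested.

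Of 202 named genes, 136 had the same call in every setting that tested them. Among genes called in the main fit or in the alternative, 1 changed sign, s100b after thinning (-0.0186, adjusted p = 0.934 by edgeR). Changes of sign in genes called in neither fit were not counted. Calls were lost for 27 genes without the block, 10 with DESeq2, 14 after thinning, 49 with area C alone and 3 to 17 with a male left out. List counts in every setting were also added after seeing the data.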
